A study of Mus musculus with 19 samples.

Results

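The genes described here are 7 that serve the filling of the blastocoel, the fluid cavity that turns a morula into a blastocyst. They are the sodium pump beta subunits Atp1b1 and Atp1b3, the sodium-proton exchanger Slc9a3, and the aquaporins Aqp3, Aqp8, Aqp9 and Aqp11. They were chosen by gene name, and all 7 have a row among the 53379 gene rows of the count table. Of these, 6 reached 1 FPKM (counts scaled for library size and for kilobases of exon) in at least 2 of 19 embryos, and so were among the 18410 genes tested. Slc9a3 did not.

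The libraries hold polyA RNA of 19 mouse embryos, 1 embryo each, made by in vitro fertilisation, cultured in KSOM medium and collected 96 hours after insemination. Parents were Alyref+/- x Alyref+/-, Gabpb1+/- x Gabpb1+/- or wild-type (WT) B6D2F1 mice. Alyref encodes an adaptor for export of mRNA from the nucleus, and Gabpb1 a subunit of the ETS-family transcription factor GABP. From Alyref+/- parents came 2 KO morulae (Alyref-/-) and 6 non-KO embryos, of which 3 were morulae and 3 were blastocysts. From Gabpb1+/- parents came 3 morulae with the label KO (Gabpb1-/-) and 5 non-KO embryos, of which 2 were morulae and 3 were blastocysts. WT parents contributed 3 blastocysts. The submitters called an embryo KO where no reads fell in the deleted region, so the same libraries gave the genotype and the expression values. Non-KO embryos of a heterozygous cross are WT or heterozygous and are not separated. Morulae and blastocysts were collected at the same time, so a morula here is an embryo that had not cavitated when its siblings had, and the stages do not differ in age. Each sample is 1 whole embryo. Fewer cells of a type and less RNA per cell therefore cannot be told apart in any difference given here.

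Blastocyst formation is known to depend on the trophectoderm, the outer epithelium of the embryo. Its sodium pump, made of a catalytic alpha and a glycosylated beta subunit, moves sodium across the basolateral membrane, sodium enters from outside through exchangers, and water follows through aquaporins. Tight junctions between the cells hold the fluid in the cavity.

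Libraries held 7486125 to 31536282 gene counts (median 13633603), and spike-in RNA took 0.501% to 1.95% of counts. Whole-gene counts of Alyref were 47.8 and 58.5 CPM (counts relative to library size, with sizes adjusted by TMM, the trimmed mean of M-values) in Alyref KO morulae, against 161 to 301 CPM in the other 17 embryos. Whole-gene counts of Gabpb1 were 78.2 to 259 CPM in morulae labelled Gabpb1 KO and 83.3 and 93.8 CPM in their non-KO siblings, so the gene count does not check that label. In a principal component analysis the third Alyref cross non-KO morula and the first morula labelled Gabpb1 KO lay far from the other embryos of their groups. On the first component they stood at -3.24 and -8.08, where the rest of their groups stood between -110 and -65.5. The second Gabpb1 cross blastocyst stood at 14.9, where the other 8 blastocysts stood between 40.3 and 65.0. Results that rest on these 3 embryos are given with and without them.

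Promoters of 3 members are shown because their genes carry the pattern: Atp1b1 and Aqp8 were low in the same 8 morulae, whereas Atp1b3 was steady in CPM. Each is the 250 bases before the RefSeq start in GRCm38.p6, read along the gene's strand, with any match to 4 searched motifs in capitals. The windows are chr1:164458356-164458605 on the minus strand for Atp1b1, chr7:123462044-123462293 on the plus strand for Aqp8 and chr9:96364432-96364681 on the minus strand for the first of 2 Atp1b3 promoters.
Atp1b1: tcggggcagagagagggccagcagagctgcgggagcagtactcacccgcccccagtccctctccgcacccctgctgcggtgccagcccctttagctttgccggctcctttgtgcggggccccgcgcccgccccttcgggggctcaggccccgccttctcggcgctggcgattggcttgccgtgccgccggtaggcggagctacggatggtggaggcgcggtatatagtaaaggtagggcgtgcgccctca
Aqp8: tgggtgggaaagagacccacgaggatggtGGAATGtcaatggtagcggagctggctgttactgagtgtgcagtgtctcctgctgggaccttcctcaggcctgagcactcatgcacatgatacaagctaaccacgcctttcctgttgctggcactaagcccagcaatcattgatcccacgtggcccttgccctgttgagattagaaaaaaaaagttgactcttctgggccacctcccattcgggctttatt
Atp1b3: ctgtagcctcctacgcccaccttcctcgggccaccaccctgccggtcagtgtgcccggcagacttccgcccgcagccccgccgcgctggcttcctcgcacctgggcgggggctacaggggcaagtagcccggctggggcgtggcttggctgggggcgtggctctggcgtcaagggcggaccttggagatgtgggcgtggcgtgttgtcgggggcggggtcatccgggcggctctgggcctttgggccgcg
Motifs were searched on both strands, and their share is of 32851 mouse promoters of the same length. The core of ETS factors such as GABP, CCGGAAG, occurred in 6.91% of promoters. The core of TEAD factors, which act in trophectoderm, was written GGAATG and occurred in 12.6%. That of TFAP2 factors was written GCCNNNGGC and occurred in 13.7%. That of GATA factors was written AGATAA and occurred in 9.99%. In the 9 promoters of the 7 members there were 2 matches. One was GGAATG at position -221 from the start in Aqp8, and the other CCGGAAG at -190 in the second Atp1b3 promoter. For that Atp1b3 promoter, and for Slc9a3, the bases just after the start were not found in a GENCODE transcript of the gene. Base composition divided the members. The Atp1b1 window was 70.4% G or C with 24 CpG and the first Atp1b3 window 73.6% with 24 CpG, against medians of 52.4% and 6 CpG over all promoters. Aqp8 had 52.4% and 5 CpG, and the 2 Aqp9 promoters had 40.4% and 41.6% with 1 and 3 CpG. Aqp3, Aqp11 and Slc9a3 had 64.0%, 67.2% and 67.6% with 14, 23 and 19 CpG. Atp1b1 and Aqp8, which varied together, thus had promoters of different kinds. A letter match is a description and not a bound site.

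Scaled for exon length, Aqp3 was the most abundant member and Aqp11 the least abundant of those tested. Over 19 embryos the median level was 84.8 FPKM for Aqp3, 70.5 for Atp1b3, 29.7 for Atp1b1, 21.6 for Aqp9, 8.76 for Aqp8 and 0.548 for Aqp11. Variation between embryos followed another order. The SD of log2(CPM + 1) over the 19 embryos was 2.23 for Aqp8 and 1.33 for Atp1b1, against 0.92 for Aqp11, 0.69 for Aqp3, 0.58 for Aqp9 and 0.26 for Atp1b3.

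**Figure D1:**
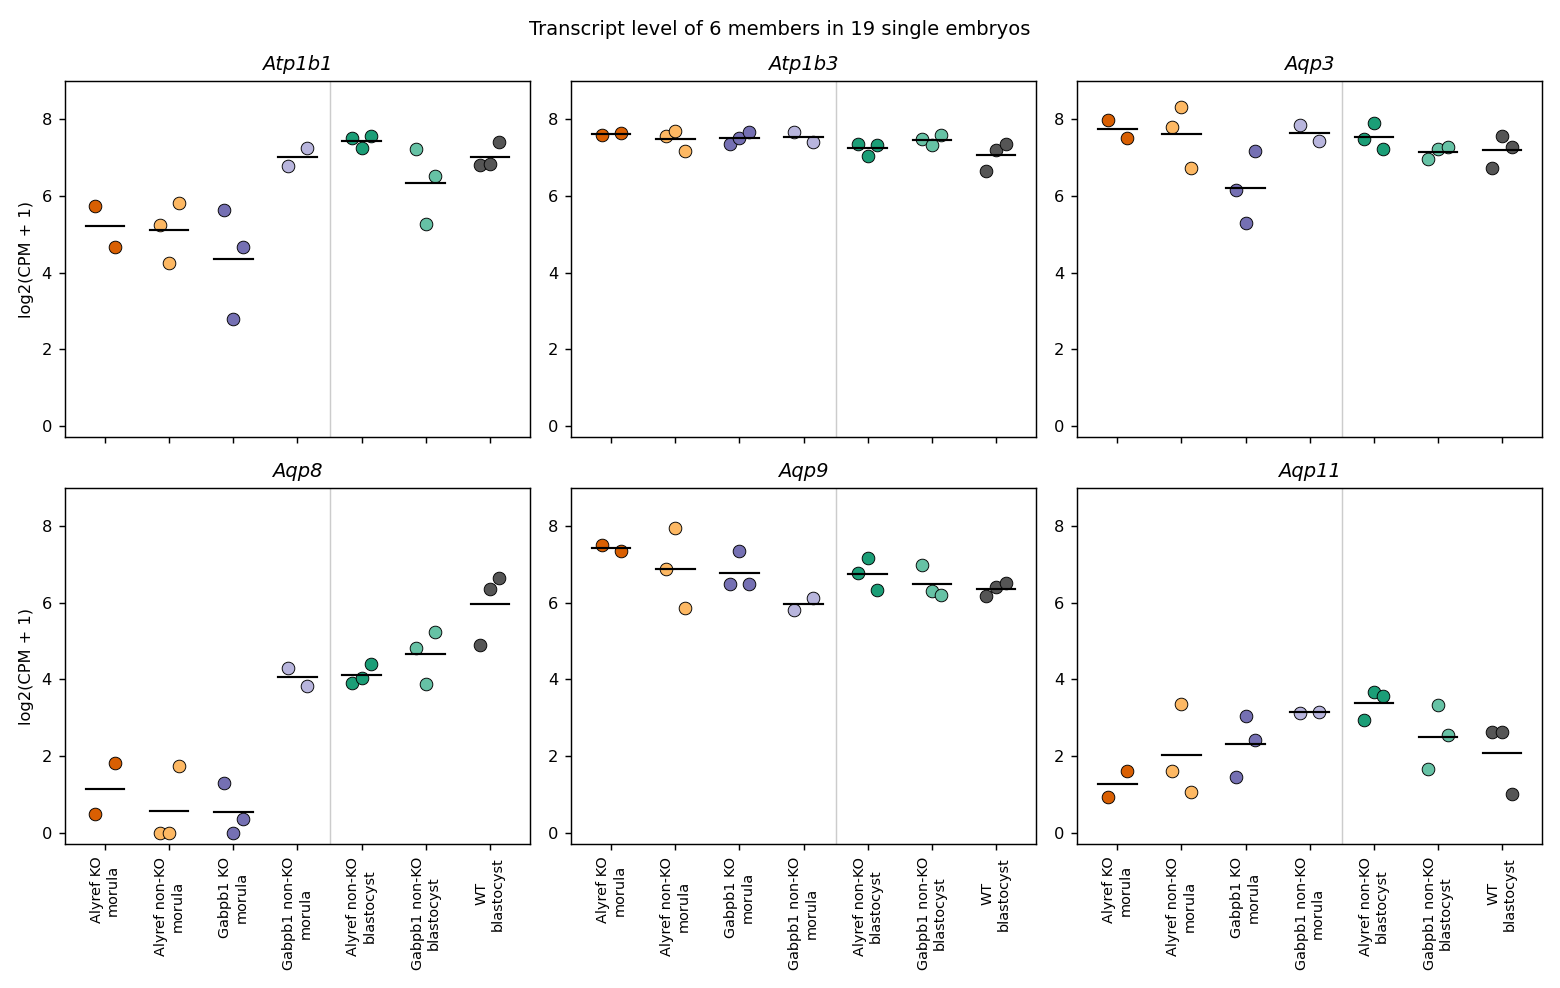
Level of each tested member as log2(CPM + 1) on the vertical axis in 7 groups on the horizontal axis, with 1 point per embryo and a bar at the group mean; the grey line divides morulae from blastocysts. Atp1b1 and Aqp8 lie high in all blastocyst groups and in Gabpb1 cross non-KO morulae and low in the other morula groups. The exception is Atp1b1 in the second Gabpb1 cross blastocyst (37.5 CPM), inside the range of the low morulae. Atp1b3 stays between 99.8 and 207 CPM in all 19 embryos.

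Atp1b1, the beta1 subunit of the trophectoderm pump, lies on chromosome 1 at 164437109-164458355 (minus strand, mm10). It had 182, 152 and 189 CPM in the Alyref cross blastocysts, and 112, 113 and 168 CPM in WT blastocysts. The Gabpb1 cross blastocysts were wider apart, at 149, 37.5 and 91.4 CPM, the second of which is the embryo named above as standing apart. Gabpb1 cross non-KO morulae, at 109 and 152 CPM, lay within the range of blastocysts.
The other morulae were lower. Atp1b1 had 52.4 and 24.5 CPM in Alyref KO morulae, and 36.8, 18.1 and 55.3 CPM in Alyref cross non-KO morulae. It had 48.5, 5.92 and 24.5 CPM in morulae labelled Gabpb1 KO. The lowest Gabpb1 cross blastocyst falls inside the range of these 8 morulae, and the other 8 blastocysts lie above all of them.
Group means ran from 174 ± 19.9 CPM (SD, n = 3) in Alyref cross blastocysts through 131 ± 32.4 (n = 3) in WT blastocysts, 131 ± 30.2 (n = 2) in Gabpb1 cross non-KO morulae and 92.5 ± 55.5 (n = 3) in Gabpb1 cross blastocysts. The lower means were 38.4 ± 19.7 (n = 2) in Alyref KO morulae, 36.7 ± 18.6 (n = 3) in their non-KO siblings and 26.3 ± 21.4 (n = 3) in morulae labelled Gabpb1 KO. Each pair of neighbours in this order had overlapping ranges, and between Gabpb1 cross blastocysts and Alyref KO morulae the overlap rests on the second of those blastocysts.

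Atp1b1 shares 575 exon bases, 18.7% of its exons, with Nme7, a gene on the opposite strand. The strand setting of the counting is not given in the sources used here, and reads in the overlap cannot be told apart without strand. The group means of Nme7 had the same order as those of Atp1b1, except that Alyref cross and WT blastocysts changed places. Nme7 had 43.2 ± 5.27 CPM (SD, n = 3) in Alyref cross blastocysts and 49.7 ± 10.9 (n = 3) in WT blastocysts. It had 30.3 and 45.9 CPM in Gabpb1 cross non-KO morulae and 34.9 ± 10.5 (n = 3) in Gabpb1 cross blastocysts. Lower means were 23.1 ± 3.40 (n = 2) in Alyref KO morulae, 17.7 ± 4.68 (n = 3) in their non-KO siblings and 7.67 ± 5.05 (n = 3) in morulae labelled Gabpb1 KO. The part of Nme7 in the Atp1b1 values was not tested.

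Atp1b3, the beta3 subunit, lies on chromosome 9 at 96332655-96364442 (minus strand). In CPM it held a near-constant level, from 99.8 CPM in the first WT blastocyst to 207 CPM in the second Alyref cross non-KO morula, with a median of 168 CPM. Its group means ran from 137 ± 33.4 CPM (SD, n = 3) in WT blastocysts to 196 ± 3.56 (n = 2) in Alyref KO morulae, and no comparison called it. Scaled to spike-in RNA instead, Atp1b3 ran from 84.9 to 328 CPM, both in morulae labelled Gabpb1 KO. On that scale its group means ran from 113 in WT blastocysts to 295 in Gabpb1 cross non-KO morulae. Of its 50-base stretches, 9.71% also occur in its processed pseudogene Gm1848, which had 4.89 to 13.4 CPM. Part of either count could thus belong to the other, and the size of that part was not tested.

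The beta subunit make-up therefore differed between groups mainly through Atp1b1. Scaled for length, Atp1b1 was 46.4% to 47.7% of the summed beta1 and beta3 level in Alyref cross blastocysts, 37.4% to 46.5% in WT blastocysts and 15.3% to 39.3% in Gabpb1 cross blastocysts. It was 29.5% and 41.1% in Gabpb1 cross non-KO morulae. In the other morulae it was 8.72% and 17.3% (Alyref KO), 6.33% to 23.0% (Alyref cross non-KO) and 2.49% to 18.8% (labelled Gabpb1 KO).

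Slc9a3, the exchanger NHE3 of apical membranes, lies on chromosome 13 at 74121457-74169442 (plus strand). It gave 2 counts in all: 1 in the third Alyref cross non-KO morula and 1 in the second Gabpb1 cross blastocyst. With 3 counts as the floor, a library with no count allows a level of up to 0.0967 to 0.396 CPM, depending on its depth. Floors and intervals cover counting error only. Slc9a3 was thus near or below detection in every group, and no comparison of it is possible at this depth.

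Aqp3, a channel for water and glycerol, lies on chromosome 4 at 41092722-41098183 (minus strand). It had 254 and 182 CPM in Alyref KO morulae and 222, 321 and 105 CPM in their non-KO siblings. Gabpb1 cross non-KO morulae had 229 and 173 CPM, and the morulae labelled Gabpb1 KO had 70.3, 38.4 and 143 CPM. All 3 of the latter lay below both siblings. In the 9 blastocysts Aqp3 ran from 106 to 239 CPM, and group means were 188 ± 45.8 (SD, n = 3) in the Alyref cross, 143 ± 15.9 (n = 3) in the Gabpb1 cross and 150 ± 41.6 (n = 3) in WT. The group labelled Gabpb1 KO was the lowest of 7 at 83.9 ± 53.6 (n = 3).

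Aqp8, a channel for water that also passes ammonia and hydrogen peroxide, lies on chromosome 7 at 123462291-123468004 (plus strand). It was close to absent in 8 morulae and present in all other embryos. It had 28.9, 80.8 and 99.96 CPM in WT blastocysts, 27.3, 13.9 and 36.7 CPM in Gabpb1 cross blastocysts, and 14.0, 15.5 and 20.2 CPM in Alyref cross blastocysts.
Gabpb1 cross non-KO morulae had 18.6 and 13.1 CPM, within or just below the range of blastocysts of the heterozygous crosses. Alyref KO morulae had 0.396 and 2.53 CPM, from 3 and 38 counts. Their non-KO siblings had 0, 0 and 2.33 CPM, the last being 36 counts in the embryo that stood apart. The morulae labelled Gabpb1 KO had 1.46, 0 and 0.284 CPM, from 17, 0 and 4 counts.
The highest of these 8 morulae, at 2.53 CPM, lies below the lowest of the other 11 embryos, at 13.1 CPM. In the 3 embryos with no count the floor of 3 counts allows 0.163, 0.253 and 0.278 CPM. Among the groups with signal, the order of means was 69.9 ± 36.7 CPM (SD, n = 3) in WT blastocysts, 26.0 ± 11.5 (n = 3) in Gabpb1 cross blastocysts, 16.6 ± 3.25 (n = 3) in Alyref cross blastocysts and 15.9 ± 3.93 (n = 2) in Gabpb1 cross non-KO morulae. The last 2 groups differ by less than their SD.

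Aqp9, a channel for water, glycerol and other small solutes, lies on chromosome 9 at 71110659-71168682 (minus strand). Its group mean was highest in Alyref KO morulae, at 182 and 163 CPM, and lowest in Gabpb1 cross non-KO morulae, at 55.6 and 69.2 CPM. The morulae labelled Gabpb1 KO had 89.5, 161 and 88.3 CPM, all above their siblings. Alyref cross non-KO morulae spread from 57.4 to 244 CPM, and the 9 blastocysts from 71.8 to 142 CPM. The antisense gene Gm32511 lies within the span of Aqp9 without sharing exon bases. Its level was 20.6 ± 5.80 CPM (n = 3) in the group labelled Gabpb1 KO and 4.34 ± 3.12 (n = 2) in their siblings, and its part in the Aqp9 values was not tested.

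Aqp11, an aquaporin of intracellular membranes, lies on chromosome 7 at 97724006-97738289 (minus strand). It had 0.924 and 2.07 CPM in Alyref KO morulae and 2.06, 9.28 and 1.10 CPM in their non-KO siblings. Gabpb1 cross non-KO morulae had 7.75 and 7.91 CPM and the morulae labelled Gabpb1 KO had 1.72, 7.22 and 4.40 CPM. In blastocysts it had 6.67 to 11.8 CPM (Alyref cross), 2.14 to 9.12 CPM (Gabpb1 cross) and 1.01 to 5.18 CPM (WT). A library held 7 to 207 counts of it, so its levels carry more counting error than those of the other tested members outside the low Aqp8 groups.

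**Figure D2:**
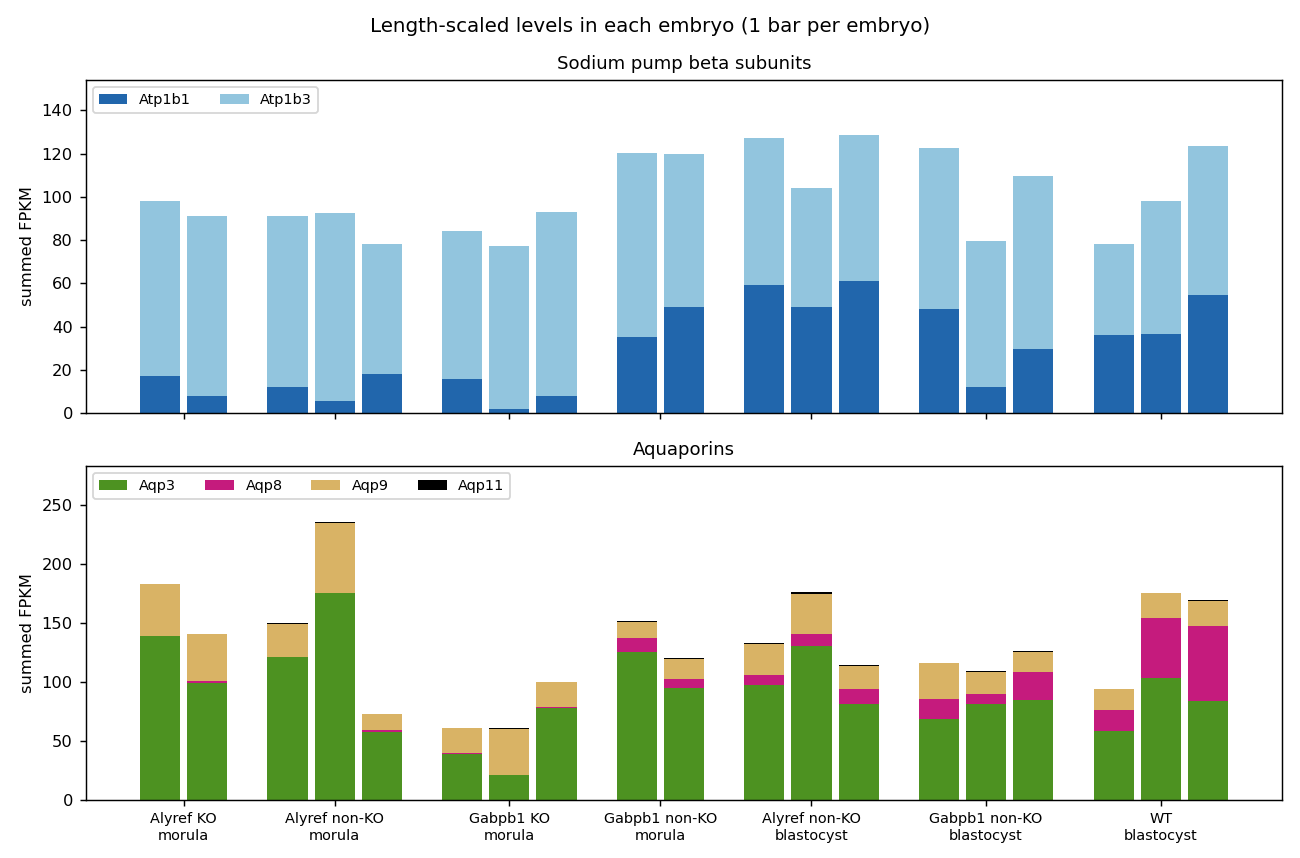
Summed length-scaled level (FPKM) on the vertical axis, with 1 stacked bar per embryo in 7 groups along the horizontal axis; the upper panel stacks Atp1b1 and Atp1b3 and the lower panel the 4 aquaporins. Aqp3 forms the largest share of the aquaporin bar in every embryo except the second morula labelled Gabpb1 KO, where it is 34.6%, and the Aqp8 share is largest in WT blastocysts.

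Aqp3 made up 49.7% to 61.6% of the summed aquaporin level per length in WT blastocysts and 70.7% to 82.8% in the other groups except morulae labelled Gabpb1 KO (34.6%, 62.9% and 78.1%) and Gabpb1 cross blastocysts (58.9% to 73.9%). Aqp8 was 19.4% to 37.4% of the sum in WT blastocysts, 5.58% to 18.4% in blastocysts of the heterozygous crosses, 6.88% and 7.79% in Gabpb1 cross non-KO morulae, and 0% to 2.03% in the other morulae. Aqp11 was at most 1.26% in any embryo.

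Differences were tested with edgeR's quasi-likelihood (QL) test on the counts, with 1 mean per group over all 19 embryos. The Benjamini-Hochberg (BH) adjustment ran over the 18410 tested genes, and a gene was called at an adjusted p under 0.05.

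Non-KO blastocysts were first compared with non-KO morulae of the same cross, since cavitation separates these stages. In the Alyref cross 2 of the 6 tested members rose from morula to blastocyst and none fell, where 13% of all tested genes were called, 5.62% as higher. Atp1b1 was 4.74-fold higher in blastocysts (log2 fold change 2.24, SE 0.62, edgeR QL adjusted p 0.0294), and Aqp8 was higher by 4.38 on the log2 scale (SE 1.14, edgeR QL adjusted p 0.0248). For both genes all 3 blastocysts lay above all 3 morulae, which held for 38.9% of tested genes in either direction and for 19.6% as higher.
The other 4 members did not pass. Their log2 differences were 1.25 for Aqp11, -0.33 for Aqp9, -0.25 for Atp1b3 and -0.20 for Aqp3, each with overlapping groups. Aqp11 passed the filter only through these blastocysts. Without the third non-KO morula, the embryo that stood apart, Atp1b1 was higher by 2.66 (edgeR QL adjusted p 0.0161). Aqp8 then had no count in the remaining 2 morulae, and was at least 79.6-fold higher in blastocysts by the floor of 3 counts per library, averaged over the group (edgeR QL adjusted p 0.00128). In that fit 24.8% of tested genes were called.
The calls, more than the size of the differences, depended on single embryos. Leaving out any 1 of the other 5, that is the first or second morula or any of the 3 blastocysts, gave log2 differences of 1.956 to 2.34 for Atp1b1 (edgeR QL adjusted p 0.0689 to 0.122) and 3.78 to 4.49 for Aqp8 (0.0566 to 0.0891). Fitting only the 2 groups gave 2.28 and 4.42 (adjusted p 0.0529 and 0.103), and scaling to spike-in RNA gave 1.73 and 3.70 (0.379 and 0.189).

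In the Gabpb1 cross the same comparison called 0 of 6 members by edgeR QL, by DESeq2 and by limma, with 0 members at an unadjusted p under 0.05. By edgeR QL it called 0% of all tested genes, with 1237 genes at an unadjusted p under 0.05, and DESeq2 called 57 genes, limma on log2(FPKM + 1) 10 and limma voom 24. Atp1b1 had a log2 difference of -0.50 (SE 0.65), Aqp8 of 0.71 (SE 1.08) and Aqp3 of -0.50 (SE 0.47). Aqp3 and Aqp9 were the 2 members whose 3 blastocysts and 2 morulae did not overlap, Aqp3 lower and Aqp9 higher in blastocysts, where 23.1% of tested genes did not. Without the second blastocyst, Atp1b1 and Aqp8 had differences of -0.12 and 1.01.

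Over both crosses the mean stage difference called 0 members by edgeR QL, where 4.36% of tested genes were called. At an unadjusted p under 0.05 stood 1 member (Aqp8) and 24.5% of tested genes. DESeq2 called 0 members, limma on log2(FPKM + 1) called 1 and limma voom 2, where they called 12.9%, 6.61% and 23.5% of genes. The mean log2 difference was 2.55 for Aqp8 (SE 0.80, edgeR QL adjusted p 0.0725) and 0.87 for Atp1b1 (SE 0.45, edgeR QL adjusted p 0.247). Without the third Alyref cross non-KO morula, the only one of its group with an Aqp8 count, Aqp8 was called (edgeR QL adjusted p 0.00362). In that fit 15.9% of genes were called, and Atp1b1 was at 1.08 (edgeR QL adjusted p 0.133). The test of the difference between the stage differences of the crosses called 0 members and 0.00543% of genes by edgeR QL. An unadjusted p under 0.05 was found for 2 members and 13.8% of tested genes. This test gave -2.74 for Atp1b1 (SE 0.88, edgeR QL adjusted p 0.238), -3.67 for Aqp8 (SE 1.498, adjusted p 0.317) and -1.80 for Aqp11 (SE 1.14, adjusted p 0.490), Gabpb1 cross minus Alyref cross. Aqp11 passed the filter only through the Alyref cross blastocysts. DESeq2 called 0 members and limma voom 3, with 6.17% of genes by voom. Without the third Alyref cross non-KO morula, which leaves no Aqp8 count in its group, the Aqp8 difference was called (edgeR QL adjusted p 0.0222), where 3.81% of genes were.

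KO and non-KO morulae were then compared within each cross, which asks whether loss of the gene changes the level of a member at the morula stage. Between Alyref KO and non-KO morulae 0 of 6 members were called by edgeR QL, DESeq2 or limma, where edgeR QL called 0.228% of tested genes. At an unadjusted p under 0.05 were 0 members and 12.1% of tested genes. The 2 groups overlapped for each tested member, while 24.9% of tested genes had groups that did not overlap. Atp1b1 had a log2 difference of 0.06 (SE 0.66), Aqp8 of 0.99 (SE 1.24) and Aqp11 of -1.42 (SE 0.92, edgeR QL adjusted p 0.590). Differences of Atp1b3, Aqp3 and Aqp9 were 0.12, 0.01 and 0.31.

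In the Gabpb1 cross 0 of 6 members were called by edgeR QL, where 1.65% of tested genes were called. At an unadjusted p under 0.05 were 3 members (Aqp8, Atp1b1, Aqp3) and 18.9% of tested genes. DESeq2 called 2 members, limma on log2(FPKM + 1) and limma voom 2 each, and these were Atp1b1 and Aqp8. The same tools called 6.97%, 2.89% and 2.51% of all genes. The log2 differences, KO minus non-KO, were -4.75 for Aqp8 (SE 1.24, edgeR QL adjusted p 0.0613; 0.0305 by DESeq2) and -2.31 for Atp1b1 (SE 0.66, edgeR QL adjusted p 0.0833; 0.00871 by DESeq2).
They were -1.26 for Aqp3 (SE 0.46, edgeR QL adjusted p 0.168), 0.86 for Aqp9 (SE 0.46, adjusted p 0.333), -0.82 for Aqp11 (SE 0.84) and -0.03 for Atp1b3 (SE 0.22). In 5 of the 6 members, all but Atp1b3, the 3 morulae labelled KO did not overlap with the 2 non-KO morulae, where 32.2% of tested genes did not overlap.
Without the first morula labelled KO, which stood apart, both leading differences were larger and were called, where 5.25% of tested genes were. They were -3.09 for Atp1b1 (edgeR QL adjusted p 0.0260) and -6.58 for Aqp8 (edgeR QL adjusted p 0.0327), and Aqp3 was at -1.15 (adjusted p 0.217). That embryo had the highest level of Atp1b1 and Aqp8 among the 3. The second morula labelled KO had the lowest level of both, and the largest spike-in share of the 19 embryos (1.95%). Without the second, the differences shrank to -1.85 for Atp1b1 and -4.23 for Aqp8. Leaving out the second or the third gave 0 called members, where 0.641% and 0.744% of tested genes were called.

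**Figure D3:**
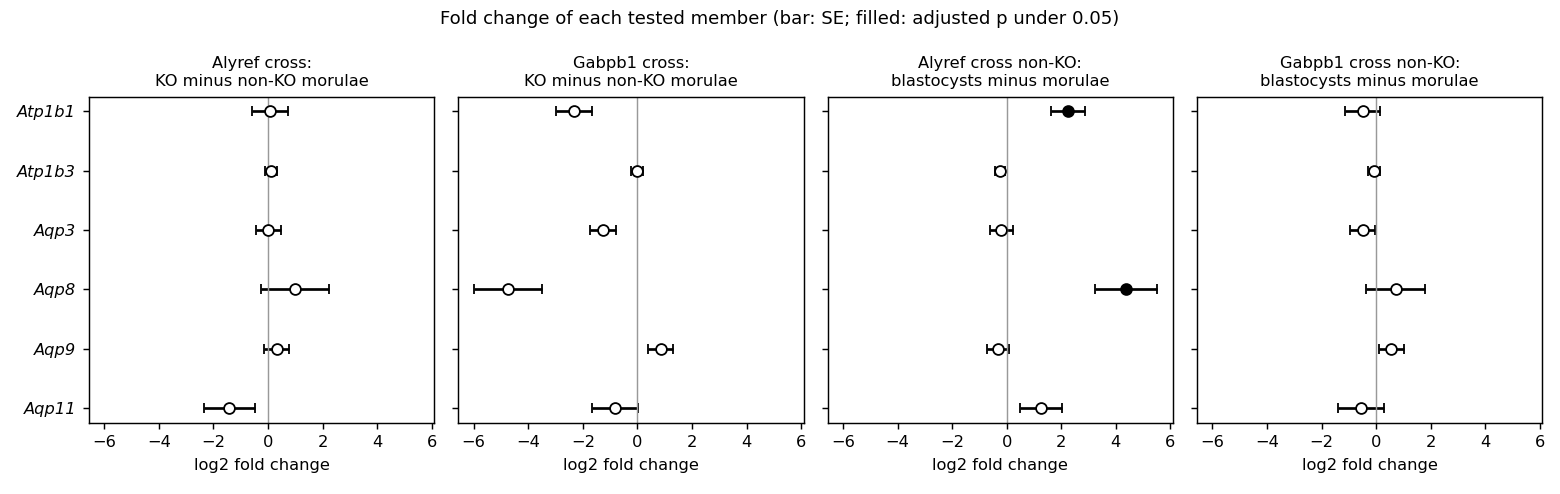
Log2 fold change of each tested member on the horizontal axis in 4 comparisons, with SE bars; filled points have an adjusted p under 0.05 by edgeR's QL test. The filled points are Atp1b1 (2.24) and Aqp8 (4.38) in the Alyref cross stage comparison, and both genes lie to the left of 0 in the Gabpb1 cross KO comparison without being called.

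The effect of KO was compared between the crosses. The test of this difference called 0 members by edgeR QL and by DESeq2, 1 (Aqp8) by limma voom (with 4.2% of genes), and 0.907% of all tested genes by edgeR QL. At an unadjusted p under 0.05 there were 2 members and 16.8% of tested genes. The difference, Gabpb1 minus Alyref, was -5.74 for Aqp8 (SE 1.74, edgeR QL adjusted p 0.122), -2.37 for Atp1b1 (SE 0.93, adjusted p 0.214) and -1.27 for Aqp3 (SE 0.66, adjusted p 0.344). Without the third Alyref cross non-KO morula the Aqp8 difference was called (edgeR QL adjusted p 0.0108), where 3.84% of genes were. That morula is the only one of its group with an Aqp8 count, so the size of the difference is not measured in that fit. Without the second Alyref KO morula the Aqp8 difference was -3.77. Leaving out the first morula labelled Gabpb1 KO put Atp1b1 at -3.15 (edgeR QL adjusted p 0.0758).
The non-KO morulae of the crosses themselves stood apart, which bears on both of the last comparisons. Gabpb1 minus Alyref cross, Aqp8 was higher by 4.32 (SE 1.19, edgeR QL adjusted p 0.0663), Atp1b1 by 1.83 (SE 0.65, adjusted p 0.128), and Aqp9 was at -1.16 (SE 0.47, adjusted p 0.167). The test called 0 members and 1.86% of tested genes by edgeR QL. An unadjusted p under 0.05 was found for 3 members and 22.4% of tested genes. DESeq2 and limma voom each called 2 members, Aqp8 and Atp1b1, and 9.28% and 14.7% of all genes. For these 2 of the 6 members the groups did not overlap, as for 36.1% of tested genes. Without the third Alyref cross non-KO morula, Aqp8 and Aqp9 were called (edgeR QL adjusted p 0.00403 and 0.0239), and Aqp8 was at least 76.3-fold higher in the Gabpb1 cross by the floor. In that fit 13.2% of tested genes were called. Without the second Alyref cross non-KO morula, which had the highest Aqp9 of its group, the Aqp9 difference was -0.43 (edgeR QL adjusted p 0.644). Leaving out the first or the second gave 0 called members, where 0% of tested genes were called. The KO effect in the Gabpb1 cross and the position of its 2 non-KO morulae cannot be told apart, because these 2 embryos are the only reference.

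KO morulae were also set against blastocysts of the same cross, which differ from them in both genotype and stage. In the Gabpb1 cross 1 of 6 members, Aqp8, fell, where 8.92% of tested genes were called, 4.97% as lower. Its log2 difference was -5.47 (SE 1.22, edgeR QL adjusted p 0.0162), with all 3 morulae below all 3 blastocysts, as for 26.3% of tested genes in either direction and 13.4% as lower. The call was lost without the second (adjusted p 0.0533) or the third morula (0.0577) or the third blastocyst (0.0563) by edgeR QL, on the spike-in scale (0.138) and in a fit of these 2 groups alone (0.0803). Atp1b1 was at -1.81 (SE 0.61, edgeR QL adjusted p 0.0718). It was called without the first morula (-2.60, adjusted p 0.0206) or without the second blastocyst (-2.20, adjusted p 0.0374), the 2 embryos of this comparison that stood apart, and these fits called 14.7% and 9.53% of genes.
In the Alyref cross 0 members were called by edgeR QL, where 13% of all tested genes were called. An unadjusted p under 0.05 was found for 3 members and 30.6% of tested genes. Atp1b1 was at -2.18 (SE 0.72, edgeR QL adjusted p 0.0567), Aqp8 at -3.39 (SE 1.28, adjusted p 0.0889) and Aqp11 at -2.66 (SE 0.96, adjusted p 0.0773). Aqp11 passed the filter only through these blastocysts, so its difference is a description. DESeq2 called 2 members and limma voom 3, with 19.4% and 29% of genes. In 5 of 6 members the 2 morulae and 3 blastocysts did not overlap, as in 57% of tested genes.

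Blastocysts of the 2 heterozygous crosses were compared with WT blastocysts. The test called 0 members and 0% of tested genes by edgeR QL, and 0 members by DESeq2. Of the members only Aqp8 had an unadjusted p under 0.05, as did 4.55% of tested genes. Its log2 difference was -1.75 (SE 0.78, edgeR QL adjusted p 0.999997), lower in the heterozygous crosses. Limma voom with sample weights called it (adjusted p 0.0307) with 0.353% of genes. The 2 highest WT blastocysts, at 80.8 and 99.96 CPM, lay above all 6 others, and the lowest, at 28.9 CPM, lay inside their range of 13.9 to 36.7 CPM.

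Atp1b1 and Aqp8 varied together. Over the 19 embryos Pearson's r of their log2(CPM + 1) was 0.80, and r between the other pairs of tested members lay between -0.52 and 0.35. This is a description over embryos that share groups, stages and crosses. The share of all tested genes with as high an r to either was not computed. Neither was the other's closest gene, since the closest reached 0.95 for Atp1b1 and 0.96 for Aqp8. The coefficient takes in the step between the 8 low morulae and the other 11 embryos. The second Gabpb1 cross blastocyst departs from it, with Aqp8 at the level of other blastocysts and Atp1b1 at 37.5 CPM.

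**Figure D4:**
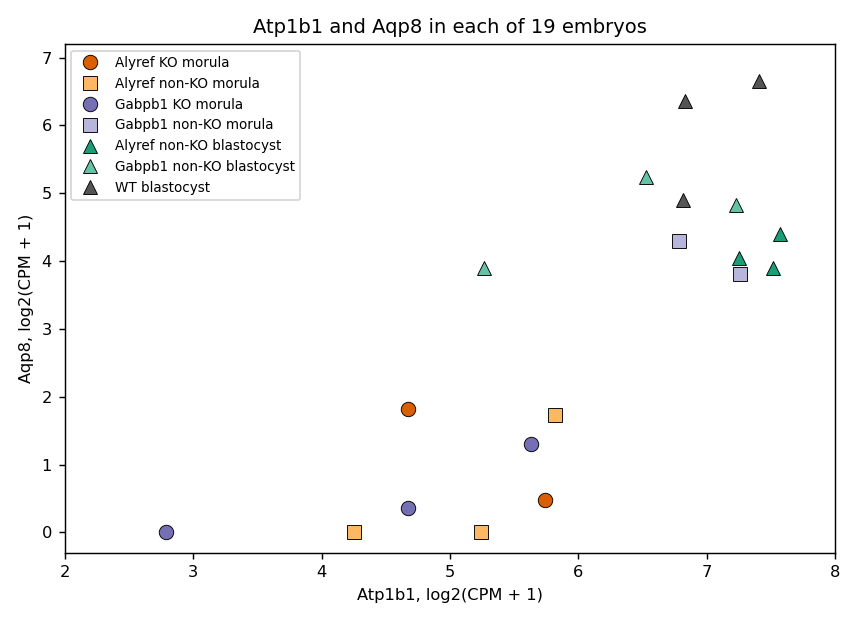
Atp1b1 on the horizontal and Aqp8 on the vertical axis, both as log2(CPM + 1), with 1 point per embryo (circles: KO morulae; squares: non-KO morulae; triangles: blastocysts). The 8 morulae of 3 groups lie at the lower left, and the 2 Gabpb1 cross non-KO morulae lie among the blastocysts.

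Among 8363 tested genes with a mean of 5 FPKM or more (other than the member itself), the genes most like each member over 19 embryos were found by Pearson's r of log2(CPM + 1). For Atp1b1 they were Ric8a (0.95), a chaperone of G protein alpha subunits, Hexa (0.95), a lysosomal hexosaminidase subunit, and Lap3 (0.92), a peptidase. For Aqp8 they were Dkk1 (0.96), a secreted inhibitor of Wnt signalling, and the predicted genes Gm20441 (0.95) and Gm17035 (0.95). For Atp1b3 the first was its own pseudogene Gm1848 (0.94), which shares sequence with it, followed by Gm15801 and Gm5582 (both 0.84). For Aqp3 they were Itpa, its pseudogene Itpa-ps1 and Mrrf (0.83 to 0.85), and for Aqp9 Nelfe, C1d and Gm8849 (0.82 to 0.85). For Aqp11, with 8364 candidates, no gene passed 0.65 (Hsbp1l1, Gsto1 and Acadm).

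Related genes were described in the same comparisons. Of 18 partners and relatives of the sodium pump 6 were tested. From morula to blastocyst in the Alyref cross 3 rose and 0 fell, with a list median of 1.47 against -0.04 over all tested genes. Of all tested genes 13% were called there, 5.62% as higher. Fxyd5 and Fxyd6, small regulators of the pump, were among the 3 and rose by 2.36 and 2.34 (edgeR QL adjusted p 0.0143 and 0.0230).
None of the 6 partners was called in the Gabpb1 KO comparison (list median -0.71 against 0.06 over all tested genes), nor in the Alyref KO comparison (-0.47 against -0.04), nor in the Gabpb1 cross stage comparison (0.23 against 0.02).

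Of 24 exchangers, ion transporters and their scaffolds 11 were tested. In the Alyref cross stage comparison 3 rose and 1 fell, where 13% of all tested genes were called, 5.62% as higher. The list median was 0.54 against -0.04 over all tested genes. Slc9a3r1 and Pdzk1, scaffold proteins known to bind Slc9a3 in other epithelia, rose by 2.21 and 2.96 (edgeR QL adjusted p 0.0184 and 0.0265) although Slc9a3 itself was barely detected. Slc4a2, an anion exchanger, rose by 2.44 (adjusted p 0.0477), and Slc12a2, the sodium-potassium-chloride cotransporter, fell by 2.08 (adjusted p 0.0262). Slc12a2 had 122 ± 110 CPM (SD, n = 3) in those morulae and 29.0 ± 3.49 (n = 3) in blastocysts. Over both crosses Slc9a3r1 rose by 1.63 and Fxyd6 by 1.81 (edgeR QL adjusted p 0.0350 and 0.0376).
None of the 11 was called in either KO comparison or in the Gabpb1 cross stage comparison, with list medians of 0.26 (Alyref KO), -0.17 (Gabpb1 KO) and 0.29 (stage). Of 8 other aquaporins only Aqp7 was tested, at a group mean of at most 2.19 CPM, and no comparison called it.

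Tight and adherens junction genes, which seal the trophectoderm, were all tested (17 of 17). Between the Alyref cross stages 7 rose and 0 fell, where 13% of all tested genes were called, 5.62% as higher. The list median was 0.97 against -0.04. The tight junction claudins Cldn7 and Cldn4 rose by 1.34 and 0.97, the junction protein F11r by 0.82, and the adherens junction genes Ctnna1 and Cdh1 by 0.98 and 1.51 (edgeR QL adjusted p 0.00760 to 0.0272). In the Gabpb1 KO comparison 1 of 17, Cldn4, fell, where 1.65% of tested genes were called. Its log2 difference was -1.18 (edgeR QL adjusted p 0.0446), from 550 ± 243 CPM (SD, n = 2) to 242 ± 23.4 (n = 3). The list median was -0.52 against 0.06. None was called in the Alyref KO comparison (median -0.16) or in the Gabpb1 cross stage comparison (0.04).

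**Figure D5:**
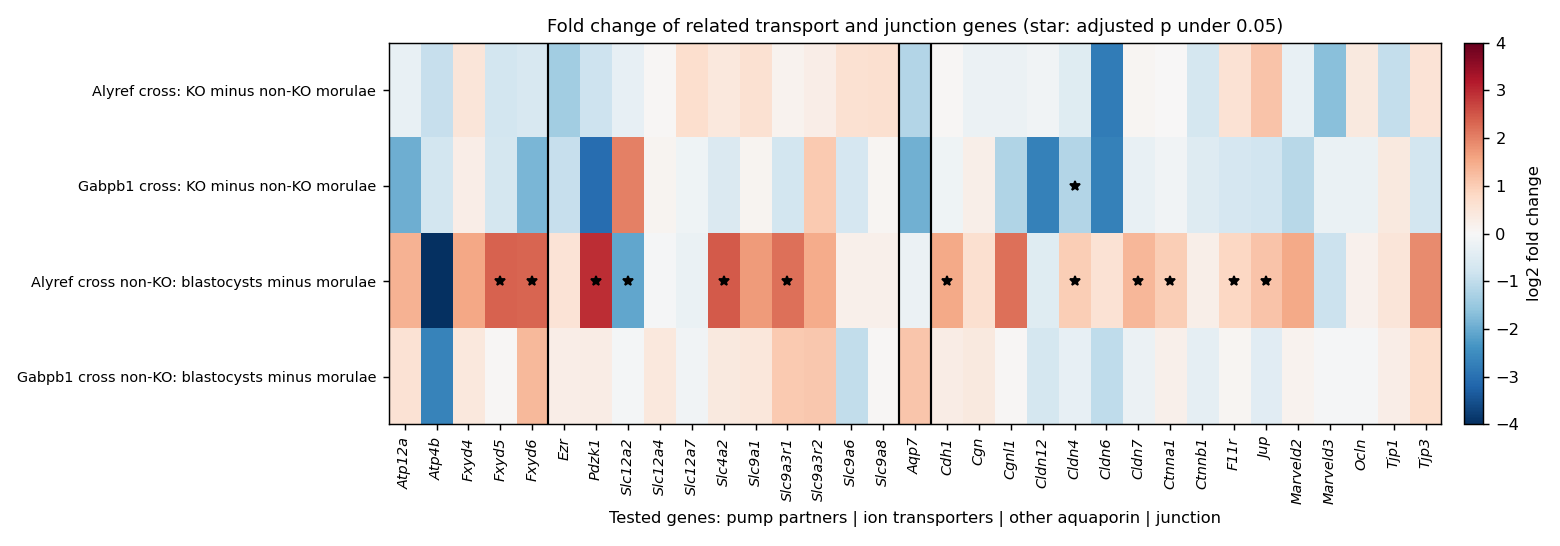
Log2 fold change (colour) of 33 tested related genes along the horizontal axis in 4 comparisons along the vertical axis, with lines between the lists of pump partners, ion transporters, the other aquaporin and junction genes; a star marks an adjusted p under 0.05. Stars stand in the Alyref cross stage row for 12 genes, where 13% of all tested genes were called, and in the Gabpb1 KO row for Cldn4 (1.65%). A further 2 tested genes of these lists are counted in the text but not shown here.

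Markers of the embryo's cell lineages were read beside Atp1b1 and Aqp8. All 14 trophectoderm markers were tested. In the Alyref cross stage comparison 3 keratins (Krt7, Krt8 and Krt18) rose and 1 gene, the transcription factor Tfap2c, fell. The list median was 2.499, and 13% of all tested genes were called, 5.62% as higher. In the Gabpb1 KO, Alyref KO and Gabpb1 cross stage comparisons 0 of 14 were called by edgeR QL. At an unadjusted p under 0.05 were 18.9%, 12.1% and 6.72% of tested genes, and 4, 1 and 0 of these 14 markers. Their summed level was 697 to 2543 CPM in Alyref cross non-KO morulae and 5658 to 9084 CPM in the blastocysts of that cross, and 5878 to 7782 CPM in the other 6 blastocysts. It was 396 to 3291 CPM in morulae labelled Gabpb1 KO and 3401 and 5406 CPM in their siblings, and 840 and 1792 CPM in Alyref KO morulae. In 4 of these morulae 1 or 2 of the 14 markers had no count. Both Gabpb1 cross non-KO morulae thus lay below all 9 blastocysts in this sum, whereas their Atp1b1 levels lay within the range of blastocysts. The third Alyref cross non-KO morula and the first morula labelled Gabpb1 KO had the highest sums of their groups, and also the highest Atp1b1 and Aqp8. Of 12 epiblast and pluripotency markers 3 (Nanog, Klf2 and Pou5f1) fell and 0 rose in the Alyref cross stage comparison, where 13% of tested genes were called. The sum of the 12 was 993 to 1185 CPM in those morulae and 638 to 790 CPM in those blastocysts. This sum was 427 and 723 CPM in Gabpb1 cross non-KO morulae and 716 to 1028 CPM in their siblings labelled KO. Between these groups 0 of 12 were called by edgeR QL, and 4 had an unadjusted p under 0.05, as did 18.9% of tested genes. Of 8 primitive endoderm markers 0 were called in either comparison by edgeR QL. At an unadjusted p under 0.05 stood 31.1% (stage) and 18.9% (KO) of tested genes, and 1 and 2 of these 8 markers. Their sum was 285 to 791 CPM in the 10 morulae and 737 to 1374 CPM in the 9 blastocysts. The part of lineage content in the differences of Atp1b1 and Aqp8 was not tested. Summed markers of cumulus and granulosa cells were at most 5.76 CPM and of sperm at most 2.15 CPM in any embryo.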

How the data were processed

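PolyA RNA of 19 single embryos was measured. The authors deposited 1 table of gene counts with exon lengths and mm10 coordinates. The deposited values are whole counts, although the table is named for FPKM. Per the submitters' processing notes, reads were handled with Trimmomatic, Trim Galore, cutadapt, STAR and featureCounts; versions and strand setting are not given in the sources used here.

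The 92 spike-in rows stayed out of library sizes. Genes with 1 FPKM or more in at least 2 embryos were tested with edgeR 4.0.16 (TMM, quasi-likelihood, R 4.3.3), 1 mean per group, 11 contrasts, BH adjustment over 18410 genes. SE was taken from the fold change (log2) and its F statistic, as |log2 fold change|/sqrt(F). Group sizes were 2 or 3, so precision rests on a spread shared by the 7 groups. Nothing in the labels says that embryos of a group came from separate litters, so p-values measure the spread between these embryos. Reported FPKM levels were computed from TMM-scaled CPM and exon length. FPKM for the filter, for limma and for the choice of likeness candidates used library size without TMM. Alternatives used DESeq2 1.42.0, limma 3.58.1 on log2(FPKM + 1) and log2(FPKM + 0.1), limma voom, other scalings and filters, and omission of each embryo. Motifs and 50-base matches were found with Python 3.11.15 in RefSeq promoters (GRCm38.p6, matched by gene symbol for all 7 members) and GENCODE transcripts. All members are described; related genes are named if called in at least 1 of the first 5 contrasts, at most 6 a list; genes beyond that limit, and 2 others counted in the lists, are not named in the text. Members and lists were chosen with earlier results of these data known.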

Additional observations from a re-analysis of the deposited data

How the results depend on the processing

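The count of called members, out of 6, depended on the method. In the Gabpb1 KO comparison it was 0 by edgeR QL (with 1.65% of all genes called), 2 by DESeq2 (6.97%) and 2 without the filter on low counts (0.899%). It was 2 by limma on log2(FPKM + 1) (2.89%), 2 by voom (2.51%) and 1 by limma on log2(FPKM + 0.1) (2.59%). Without 1 embryo of the group labelled KO it was 0 to 2, the 2 being without the first of them (5.25%). In the Alyref cross stage comparison 2 were called, with 13% of all genes. These 2 calls became 0 on the spike-in scale (1.91%) and 0 when only those groups were fitted (0.13%). Without 1 embryo they became 0 to 2, the 2 being without the third morula (24.8%). Voom called 3 (39.4%). For the mean stage difference (4.36% of genes) 0 became 1 without the filter (2.18%) and under both limma settings (6.61% and 5.34%), and 2 by voom (23.5%). Without 1 embryo of a group of 3 it was 0 to 1, the 1 being without the third Alyref cross non-KO morula (15.9%). For the difference of stage differences (0.00543% of genes) 0 became 3 by voom (6.17%). For the difference of KO effects (0.907%) 0 became 1 by limma on log2(FPKM + 1) (1.47%) and 1 by voom (4.2%). Without 1 embryo of a group of 3 each of these 2 differences gave 0 to 1. The 1 was without the third Alyref cross non-KO morula (3.81% and 3.84%). Alyref KO morulae against blastocysts, with 0 calls and 13% of genes, gave 2 by DESeq2 (19.4%), 1 without the filter (5.13%) and 3 with only those groups (28.3%). They gave 2 under both limma settings (15.4% and 14.5%) and 3 by voom (29%). Gabpb1 KO morulae against blastocysts, with 1 call and 8.92% of genes, gave 0 on the spike-in scale (0.473%) and with only those groups (0.0706%). They gave 2 by DESeq2 (16.2%), without the filter (3.84%), by limma on log2(FPKM + 1) (11.5%) and by voom (15.6%). Without 1 embryo they gave 0 to 2, the 2 being without the first morula (14.7%) or the second blastocyst (9.53%). Non-KO morulae between crosses, with 0 calls and 1.86% of genes, gave 2 by DESeq2 (9.28%) and voom (14.7%). They gave 1 without the filter (1.02%) and under both limma settings (3.71% and 3.12%). Without 1 embryo of the Alyref cross they gave 0 to 2, the 2 being without the third (13.2%). The heterozygous crosses against WT, with 0 calls, gave 1 by voom (0.353% of genes). The cause of these changes was not tested.

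Over 38 reported fold changes of members and 622 alternatives 19 changed sign, none of a called value. Atp1b1 in the Alyref KO comparison was at -0.16 on the spike-in scale, -0.082 by voom, and -0.59 to 0.49 without 1 embryo (negative without the first KO or the second non-KO morula). Aqp8 there ran from -1.003 without the second KO morula to 7.49 without the third non-KO morula, a fitted value against 2 libraries with no count and no measure of size. In the same comparison Aqp3 was at -0.0060 without the filter, -0.00042 with only those groups and -0.32 to 0.44 without 1 embryo, Atp1b3 at -0.015 to 0.25 and Aqp9 at -0.061 to 1.01 without 1 embryo; the negative ends are without the third non-KO morula. Atp1b3 in the Gabpb1 KO comparison was at 0.025 by voom and at -0.15 to 0.11 without 1 embryo (0.05 without the first morula labelled KO). In the Alyref cross stage comparison Aqp3 was at 0.017 and 0.018 under the limma settings and at -0.53 to 0.24 without 1 embryo, and Aqp9 at -0.71 to 0.39. Aqp8 in the Gabpb1 cross stage comparison was at -0.21 on the spike-in scale, where the median of all genes was -0.86; for the Alyref cross stage and Gabpb1 KO comparisons that median was -0.34 and -0.40. Group mean levels on the spike-in scale were 0.767 to 1.84 times those in CPM.

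Replicate numbers did not pair embryos: correlations of deviations between same-numbered embryos ran from -0.13 to 0.15. With the replicate block, 1 member was called in the Gabpb1 KO comparison (Atp1b1, -2.82, edgeR QL adjusted p 0.0348), 2 in Alyref KO morulae against blastocysts and 2 in Gabpb1 KO morulae against blastocysts; no other count of called members changed. The counts of all called genes under the block moved by over 1.5 times in the Alyref KO comparison (42 to 8) and for the mean stage difference (803 to 401).

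Counts of all called genes ranged widely over the settings: 0 to 841 for the Alyref KO comparison, 0 to 1284 for Gabpb1 KO, 24 to 7262 for the Alyref cross stage comparison and 0 to 57 for the Gabpb1 cross stage comparison. Depth limits Slc9a3 in all groups and Aqp8 in the 8 low morulae.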
